A study of Mus musculus with 3 samples.

Results

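The genes that make, sense, take up, export and esterify cholesterol were followed through the nuclei of mouse liver after a diet rich in cholesterol. They are 36 named genes of the 32285 in the deposited feature lists, chosen by name without a cutoff on measured values, but with earlier results of these data known. The list holds 18 enzymes of cholesterol synthesis, 5 genes of the SREBP (sterol regulatory element-binding protein) system, 3 genes of the LXR (liver X receptor) and IDOL system, 3 genes of uptake and lysosomal transport, 4 efflux transporters and 3 genes of cholesterol esterification. The study profiled liver nuclei from male C57BL/6 J mice by single-nuclei RNA sequencing (sNuc-Seq), with 1 mouse on a normal diet (ND) and 2 mice with steatohepatitis and fibrosis (STZ-HFHC). The STZ-HFHC mice received 0.2 mg streptozotocin (STZ), which damages insulin-producing cells, at 3 days of age, and from 4 weeks of age were fed a diet high in fat and cholesterol (HFHC), in which fat gave 41 kcal% and carbohydrate 43 kcal%. There was no library with STZ or diet alone, so the effects of STZ and of the diet cannot be told apart, and the age of each mouse at collection was not given in the sources used here. The ND library and the STZ-HFHC libraries carry codes that begin differently and whose meaning is not given, so any difference in preparation cannot be told apart from the condition.

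Cells hold their cholesterol within narrow limits. When sterols are scarce in the endoplasmic reticulum, SCAP escorts SREBP-2 to the Golgi, where it is cut and freed to switch on the genes of the mevalonate and sterol pathway. When sterols are plentiful, INSIG proteins hold SCAP back, and oxysterols activate the LXR receptors, which switch on the ABC transporters that move cholesterol to bile or to lipoproteins, and the ligase IDOL, which marks lipoprotein receptors for breakdown.

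The kept libraries held 8494 ND, 8921 STZ-HFHC 1 and 10921 STZ-HFHC 2 nuclei with 42715797 to 55632923 UMIs (unique molecular identifiers, 1 per captured RNA molecule), and pairs of libraries shared 20 to 27 cell barcodes. Nuclei were clustered without the 36 genes and grouped into classes by marker genes. Hepatocyte-like nuclei, which carried Alb, Apob, Cps1 and Hnf4a, numbered 5403, 2981 and 4725 in the same order, with median depths of 4045, 7925 and 6556 UMIs. Only a cluster of 888 nuclei met the first naming rule, with 4 of 10 hepatocyte markers raised at least 2-fold over the other clusters. The other hepatocyte-like clusters raised 0 to 2. A looser second rule named them, except 1 ND cluster named later: at least 3 markers at least 1.2-fold above the non-hepatocyte clusters of their main library. Nearly all hepatocyte-like nuclei of ND lay in clusters led by other genes than those of the STZ-HFHC mice (Bhmt and Elovl3 led the largest ND cluster, and Nrg1 and Areg the largest STZ-HFHC cluster), and 1 small interferon-led cluster held nuclei of all 3 mice. Hepatocyte messages were also found in all other classes: the summed level of 10 hepatocyte markers there was 49.0% to 91.4% of that in hepatocyte-like nuclei of the same library.

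The windows around the transcription starts were read first, because SREBP-2 acts at the promoters of the synthesis genes together with the factors NF-Y and Sp1. RefSeq sequence of GRCm38.p6, the assembly whose chromosomes mm10 also uses, held a window of 250 bases before to 50 bases after the start for 29 of the 36 genes. The letters CCAAT of NF-Y, on either strand, were present in the windows of 22 of these 29 genes and of 13 of the 15 synthesis genes with a window, beside 37.4% of all 32851 windows. The Sp1 letters GGGCGG were present in 21 of the 29 and in 14 of the 15, beside 35.7% of all windows. The sterol regulatory element was searched only as the string TCACNCCAC, which was found in 1 window, that of Hmgcs1, beside 1.24% of all windows. The LXR repeat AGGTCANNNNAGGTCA was found in none of the 29, beside 0.0152% of all windows. The E-box CANNTG, which 72.3% of all windows held, was present in 23. A match is a string of letters and not a shown binding site. Only these exact strings were searched, so a window without a match is not shown to lack a site. The 3 windows below belong to the genes with a window whose weaker difference from ND in the 2 STZ-HFHC mice was largest in hepatocyte-like nuclei. The short Hmgcs1 stretch, chosen after the search, holds the only match to TCACNCCAC in the 29 windows. Capitals mark CCAAT or its complement, GGGCGG and, in Hmgcs1, the match to TCACNCCAC, and E-boxes are left in lower case.
Cyp51, chr5:4104648-4104947, minus strand: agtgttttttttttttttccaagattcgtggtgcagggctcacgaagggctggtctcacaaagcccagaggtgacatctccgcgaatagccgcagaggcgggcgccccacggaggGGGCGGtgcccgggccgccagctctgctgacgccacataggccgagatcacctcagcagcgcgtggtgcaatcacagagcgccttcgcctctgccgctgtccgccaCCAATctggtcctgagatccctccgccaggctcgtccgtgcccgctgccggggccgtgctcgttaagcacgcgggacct
Msmo1, chr8:64733529-64733828, minus strand: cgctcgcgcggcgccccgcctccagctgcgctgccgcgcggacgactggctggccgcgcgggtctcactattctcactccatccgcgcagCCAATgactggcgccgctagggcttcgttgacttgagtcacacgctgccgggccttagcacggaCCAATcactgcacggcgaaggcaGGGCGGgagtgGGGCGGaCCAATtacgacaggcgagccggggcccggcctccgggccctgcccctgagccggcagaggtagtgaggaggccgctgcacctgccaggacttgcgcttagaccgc
Abcg5, chr17:84682962-84683261, minus strand: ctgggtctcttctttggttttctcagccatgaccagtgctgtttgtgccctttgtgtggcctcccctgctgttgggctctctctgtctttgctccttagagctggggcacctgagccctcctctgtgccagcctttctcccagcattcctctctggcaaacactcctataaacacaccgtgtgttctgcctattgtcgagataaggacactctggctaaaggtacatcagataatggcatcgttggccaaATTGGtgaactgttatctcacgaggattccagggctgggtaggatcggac
Hmgcs1, chr13:119690194-119690242, plus strand, 137 bases before the start: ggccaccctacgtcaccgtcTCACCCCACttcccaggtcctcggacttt
The windows of Cyp51 and Msmo1, enzymes that remove methyl groups from lanosterol and its products, each held both NF-Y and Sp1 letters. The window of Abcg5 held 1 NF-Y string, as its complement at the transcription start, and no Sp1 string. Abcg5 and its partner Abcg8 lie head to head: the start of one Abcg8 window was 110 bases from that of Abcg5, and these 2 windows shared 209 bases.

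For each class the UMIs of a gene were summed per library and divided by all UMIs of the same nuclei (CPM, counts per 1000000 UMIs). Where 3 values are listed, they stand in the order ND, STZ-HFHC 1, STZ-HFHC 2, and where 2 are listed, in the order STZ-HFHC 1, STZ-HFHC 2. With a single ND mouse the condition has no replicate check. A gene was therefore called higher or lower by size alone, when it had at least 50 UMIs in the class over the 3 libraries and both STZ-HFHC mice lay at least 2-fold above ND or both at least 2-fold below it. Intervals in parentheses are 95% intervals of a ratio to ND and cover counting error only, not the spread between mice.

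In hepatocyte-like nuclei 7 of the 18 genes of cholesterol synthesis were at least 2-fold lower, and all 4 efflux transporters at least 2-fold higher, in both STZ-HFHC mice than in the ND mouse. Of the 36 genes 35 reached the UMI minimum, and 9 were lower and 4 were higher, beside 5.52% lower and 8.25% higher among the 14829 genes that reached it. The remaining 22 did not differ 2-fold in both mice. The 9 lower genes were Hmgcs1, Pmvk, Sqle, Cyp51, Msmo1, Hsd17b7, Ebp, Stard4 and Lcat, and the 4 higher genes were Abcg5, Abcg8, Abca1 and Abcg1. The median log2 ratio to ND over the 18 synthesis genes was -0.97 and -0.96 in the STZ-HFHC mice, while the median over all genes was 0.08 and 0.10. Of these 18 genes 15 were below ND in both mice and 3 (Mvd, Idi1 and Lss) were above it in both.

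**Figure D1:**
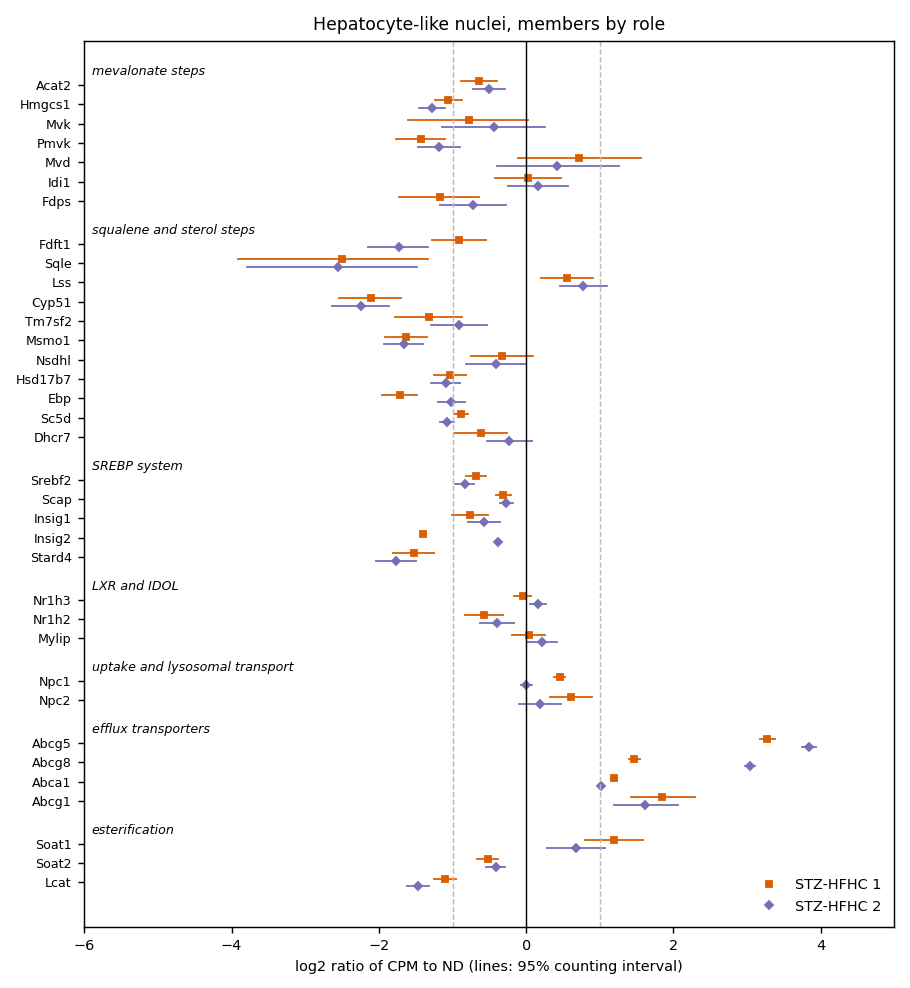
Log2 ratio of CPM in each STZ-HFHC mouse to the ND mouse in hepatocyte-like nuclei, for the 35 genes that reached the UMI minimum, ordered by role. Squares are STZ-HFHC 1, diamonds STZ-HFHC 2, lines 95% counting intervals, and dashed lines mark 2-fold. Most synthesis and SREBP genes lie left of 0 and the 4 efflux transporters lie right of the 2-fold line.

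The early enzymes of the mevalonate pathway build isoprenoid units from acetyl-CoA, and 2 of the 7 were lower. Hmgcs1, which condenses acetoacetyl-CoA with acetyl-CoA, stood at 28.3, 13.6 and 11.7 CPM, that is, 0.481 (0.423 to 0.547) and 0.413 (0.365 to 0.466) of the ND level. Pmvk, phosphomevalonate kinase, stood at 10.9, 4.04 and 4.81 CPM, or 0.370 (0.293 to 0.465) and 0.441 (0.362 to 0.536) of ND. For both genes the 2 STZ-HFHC mice lay close together and well under ND. Acat2, the thiolase that supplies acetoacetyl-CoA, was at 14.3, 9.18 and 10.1 CPM and Fdps, which makes farnesyl diphosphate, at 3.69, 1.64 and 2.23 CPM. Fdps was past 2-fold in STZ-HFHC 1 only. Mvk, mevalonate kinase, rested on 37, 22 and 37 UMIs and Mvd, which decarboxylates the diphosphate, on 21, 35 and 38, too few to separate the mice, since each interval included 1. Idi1, the isopentenyl diphosphate isomerase, was nearly level at 3.26, 3.32 and 3.63 CPM.

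The enzymes from squalene to cholesterol held most of the lower genes, 5 of 11. Cyp51, lanosterol demethylase, had the lowest ratios among those with over 100 UMIs, at 9.90, 2.29 and 2.09 CPM, 0.231 (0.171 to 0.307) and 0.211 (0.160 to 0.275) of ND. Msmo1, the sterol C4 oxidase, was at 15.9, 5.14 and 5.01 CPM, 0.324 (0.265 to 0.395) and 0.315 (0.263 to 0.378) of ND. Sqle, squalene epoxidase and a rate-limiting step of the pathway, had 39 UMIs in ND against 7 and 9, or 0.176 (0.0665 to 0.399) and 0.17 (0.0725 to 0.357) of ND, the lowest ratios of the set on the fewest molecules. For these 3 genes the STZ-HFHC mice agreed within their intervals. Hsd17b7, the 3-ketosteroid reductase, was at 21.7, 10.6 and 10.2 CPM, just past 2-fold with ratios of 0.488 (0.421 to 0.565) and 0.470 (0.410 to 0.537). Ebp, the sterol isomerase, was at 23.9, 7.28 and 11.8 CPM, with ratios of 0.304 (0.257 to 0.358) and 0.494 (0.435 to 0.560). Ebp was thus lower in STZ-HFHC 1 than in STZ-HFHC 2, and their intervals did not overlap.

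Just outside the rule lay Fdft1, squalene synthase, at 6.95, 3.70 and 2.09 CPM, Tm7sf2, a sterol reductase, at 5.59, 2.25 and 2.98 CPM, and Sc5d, the lathosterol oxidase, at 92.6, 50.1 and 43.9 CPM. Each was past 2-fold in one mouse and short of it in the other, at 0.532, 0.533 and 0.541 of ND. Nsdhl was at 4.15, 3.32 and 3.12 CPM and Dhcr7, the last reductase of one branch, at 6.36, 4.15 and 5.44 CPM. Lss, which closes squalene epoxide into lanosterol, went the other way at 4.50, 6.59 and 7.70 CPM, 1.46 (1.15 to 1.87) and 1.71 (1.37 to 2.14) times ND. It lies in the pathway between Sqle and Cyp51, which were both lower.

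**Figure D2:**
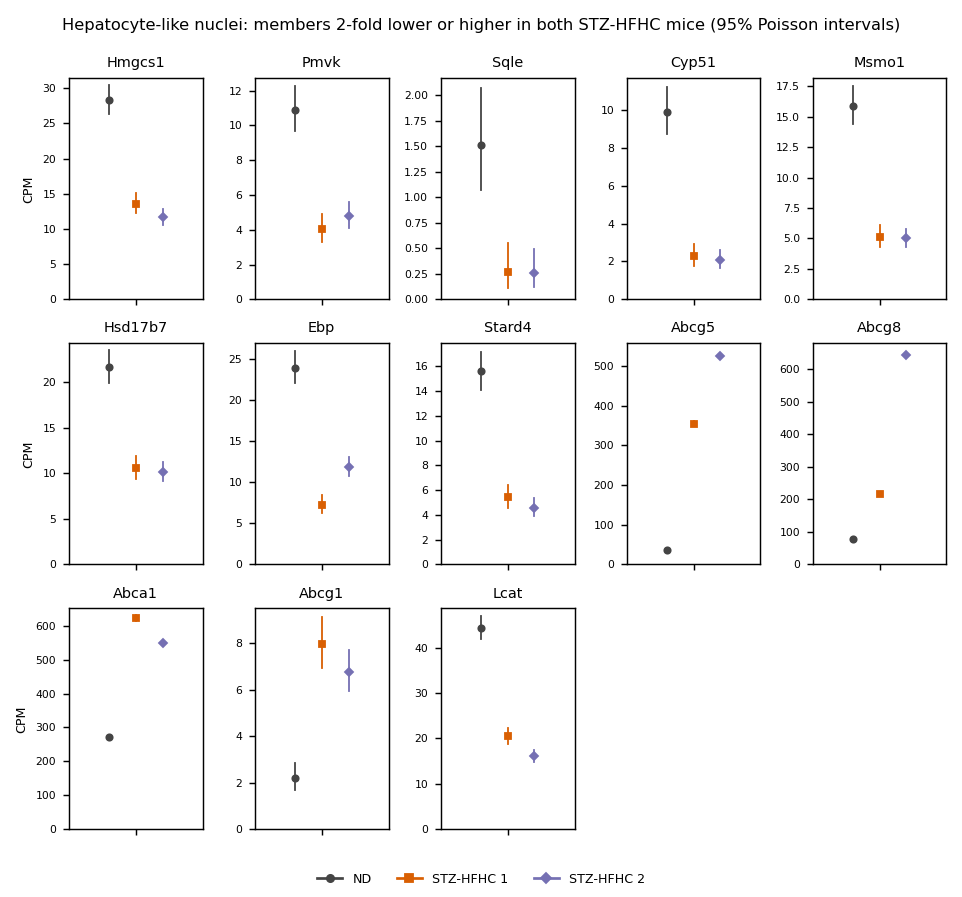
CPM in hepatocyte-like nuclei of the ND mouse and the 2 STZ-HFHC mice, 1 panel per gene called lower or higher, each axis from 0, bars 95% Poisson counting intervals. In the panels of the 9 lower genes both STZ-HFHC mice lie below ND, and in those of Abcg5, Abcg8, Abca1 and Abcg1 both lie above it.

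All 5 genes of the SREBP system were below ND in both mice, and 1 passed the rule. Stard4, a sterol carrier and SREBP target, was at 15.6, 5.41 and 4.58 CPM, 0.347 (0.284 to 0.421) and 0.293 (0.243 to 0.353) of ND. Srebf2, the gene of SREBP-2 itself, was at 44.3, 27.6 and 24.9 CPM, 0.622 (0.566 to 0.683) and 0.562 (0.514 to 0.614) of ND. Insig1, which retains SCAP and is itself an SREBP target, was at 14.4, 8.46 and 9.67 CPM. These 3 genes were lower by a similar amount in both mice. Scap lay nearest to ND, with 74.7, 60.4 and 62.0 CPM. Insig2, the other INSIG gene, split the mice: it was at 1178, 446 and 903 CPM, or 0.379 (0.371 to 0.387) and 0.767 (0.755 to 0.779) of ND.

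The receptors that sense oxysterols did not differ 2-fold in hepatocyte-like nuclei. Nr1h3, LXR alpha, was at 45.8, 44.2 and 51.2 CPM, and Nr1h2, LXR beta, at 12.0, 8.08 and 9.16 CPM. Mylip, which encodes IDOL, was at 13, 13.3 and 15 CPM, with ratios of 1.02 (0.878 to 1.19) and 1.16 (1.01 to 1.33), so in hepatocyte-like nuclei neither the sensor Nr1h3 nor the ligase moved with the transporters. Of the lysosomal transporters, Npc1 was at 99.4, 136 and 99.3 CPM and Npc2 at 6.52, 9.95 and 7.41 CPM, both highest in STZ-HFHC 1. Npc1l1, which takes up cholesterol from gut and bile, gave 0, 0 and 1 UMI and could not be measured at this depth.

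The largest difference of the set was in an efflux transporter, Abcg5. Abcg5, 1 subunit of the pump that secretes sterols into bile, was at 36.7, 355 and 525 CPM, 9.68 (9.06 to 10.4) and 14.3 (13.4 to 15.3) times ND. Abcg8, the other subunit, was at 78.1, 216 and 641 CPM, 2.76 (2.62 to 2.91) and 8.22 (7.85 to 8.60) times ND. The 2 subunit genes did not differ from ND alike: Abcg8 was far higher in STZ-HFHC 2 than in STZ-HFHC 1, with intervals that did not overlap. Abca1, which loads cholesterol onto apolipoprotein A-I, was at 272, 623 and 549 CPM, 2.29 (2.22 to 2.35) and 2.01 (1.96 to 2.07) times ND. Its call rested on 2-fold being just passed: the mean log2 ratio was 0.99 with TMM factors and 0.98 with DESeq2 size factors, both short of the rule in 1 mouse. Abcg1, which exports cholesterol to high-density lipoprotein, rested on 57, 209 and 237 UMIs, 2.21, 7.96 and 6.78 CPM, 3.60 (2.68 to 4.92) and 3.07 (2.29 to 4.17) times ND. Abcg5 and Abcg8 overlap by 6710 bases on opposite strands, and the kit keeps the strand.

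Of the esterification genes, Lcat, which esterifies plasma cholesterol on lipoproteins, was lower at 44.4, 20.6 and 16.1 CPM, 0.464 (0.418 to 0.514) and 0.363 (0.327 to 0.401) of ND. Soat2, the hepatocyte sterol acyltransferase, was at 39.1, 27.2 and 29.4 CPM. Soat1, the acyltransferase best known from macrophages, was at 3.14, 7.16 and 5.01 CPM, past 2-fold in STZ-HFHC 1 only. Macrophage markers moved with the condition in these nuclei too: the summed level of 17 markers was 68.1, 128 and 107 CPM in hepatocyte-like nuclei, beside 1025, 3029 and 1727 CPM in macrophage-like nuclei, with none at 0. The summed level of 12 T or NK cell markers in hepatocyte-like nuclei was 36.7, 271 and 342 CPM. It was 80.4, 521 and 696 CPM in the 25% of these nuclei nearest the central vein. In the 25% nearest the portal vein it was 15.9, 87.3 and 84.9 CPM. Macrophage-like nuclei had 28.3, 171 and 177 CPM. The largest STZ-HFHC hepatocyte-like cluster raised 1 of these 12 markers, so the sum need not reflect the whole list. The part of either marker sum in the values of Abcg1 and Soat1 was not tested. Of 24 other genes of sterol handling 23 reached the minimum, 1 was higher and 3 were lower. The higher one was Gramd1b, which carries plasma membrane cholesterol to the endoplasmic reticulum, at 3.80, 22.3 and 25.7 CPM, and Cyp27a1, the sterol 27-hydroxylase, was among the lower, at 249, 117 and 120 CPM.

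A replicate-based model over the same 3 sums of hepatocyte-like nuclei takes its spread from the 2 STZ-HFHC mice and assumes that the lone ND mouse varies like them. The counts at an unadjusted p below cover the 36 genes alone. The share over all genes at that threshold was not counted, so these counts have no background. With edgeR's quasi-likelihood test, Abcg5 was higher (log2 3.48, adjusted p 0.0399) and 0 of the 36 genes were lower, beside 0.332% higher and 0.441% lower of 16549 genes tested. At an unadjusted p under 0.05, 4 were higher and 16 lower. DESeq2 called 2 higher, Abcg5 and Abca1, and 7 lower, Hmgcs1, Cyp51, Msmo1, Ebp, Sc5d, Stard4 and Lcat, beside 3.69% higher and 4.32% lower of 13777 genes, and at an unadjusted p under 0.05 it had 3 higher and 12 lower.

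Along the lobule, synthesis of cholesterol is known to run mainly near the portal tract. Hepatocyte-like nuclei of each library were ranked by zone marker genes that include none of the 36, and the 25% nearest the central vein (pericentral) were compared with the 25% nearest the portal vein (periportal), with the library as a block (edgeR quasi-likelihood test over 3 mice, Benjamini-Hochberg over all genes tested). These are ranges of a score, and not cell types. Of 32 genes tested 1 was higher in pericentral nuclei and 5 were lower, beside 6.02% higher and 5.43% lower of 13395 genes.

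Idi1 was at 5.04 periportal against 1.73 pericentral CPM in ND, 5.28 against 2.82 in STZ-HFHC 1 and 4.96 against 1.38 in STZ-HFHC 2, a log2 difference of -1.45 (adjusted p 0.0158 by edgeR). Stard4 was at 24.8 against 10.9, 6.78 against 4.90 and 6.97 against 3.34 CPM (log2 -1.01, adjusted p 0.0149 by edgeR). Both genes were higher in the periportal nuclei of every mouse, and the same held for Dhcr7 (log2 -1.04, adjusted p 0.0163), Ebp (log2 -0.94, adjusted p 0.0288) and Insig1 (log2 -0.66, adjusted p 0.0227) in the edgeR test. Npc1 ran the other way, with 86.8 periportal against 128 pericentral CPM in ND, 101 against 189 and 65.5 against 138 in the STZ-HFHC mice (log2 0.80, adjusted p 0.00335 by edgeR). Each of these 6 genes lost its call when 1 library was left out, at adjusted p values of 0.0502 to 0.168 (edgeR), with the same direction. Npc1 lost it without STZ-HFHC 1, Idi1 without STZ-HFHC 2, Stard4 without ND or STZ-HFHC 2, and Ebp, Dhcr7 and Insig1 without either STZ-HFHC mouse. Synthesis genes that were not called ran both ways. Msmo1 was at 14.5 periportal against 16.2 pericentral CPM in ND, 3.47 against 7.28 in STZ-HFHC 1 and 3.70 against 7.03 in STZ-HFHC 2. Fdft1 and Hmgcs1 were also higher in the pericentral nuclei of both STZ-HFHC mice, though not of ND. Cyp51 was higher in the periportal nuclei of every mouse.

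**Figure D3:**
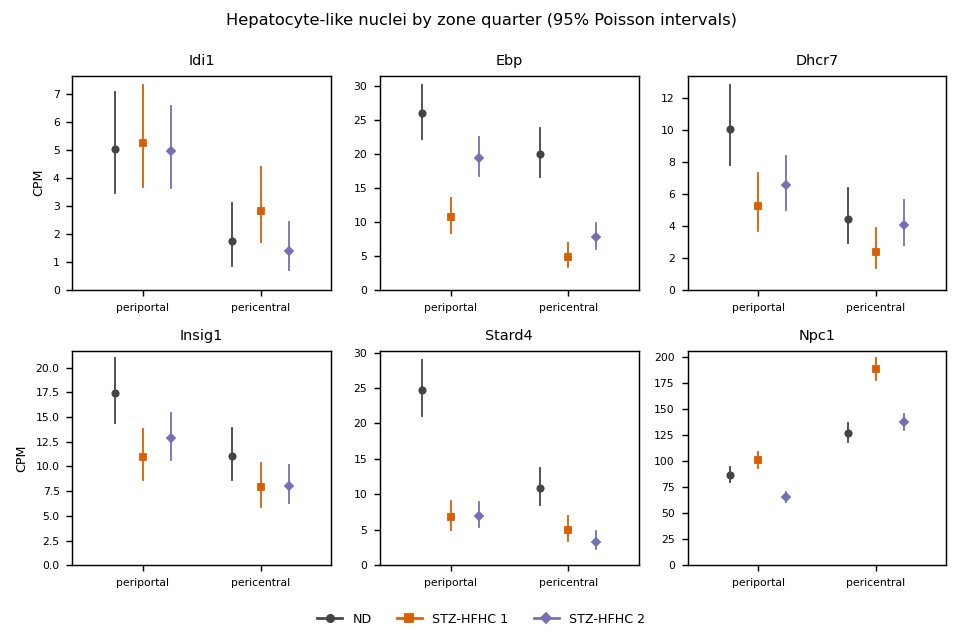
CPM of the 6 genes that differed between pericentral and periportal hepatocyte-like nuclei, in the ND mouse and the 2 STZ-HFHC mice, each axis from 0, bars 95% Poisson counting intervals. Idi1, Ebp, Dhcr7, Insig1 and Stard4 are higher in the periportal and Npc1 in the pericentral nuclei of every mouse.

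The contrast with ND was also taken within each zone. In periportal nuclei 8 genes were lower (Hmgcs1, Pmvk, Fdft1, Cyp51, Msmo1, Sc5d, Stard4 and Lcat) and 4 higher (Lss, Abcg5, Abcg8 and Abcg1), beside 5.36% lower and 5.32% higher of 11869 genes. In pericentral nuclei 5 were lower (Pmvk, Cyp51, Msmo1, Ebp and Stard4) and the 4 transporters higher, beside 5.01% lower and 6.07% higher of 11903 genes. The 2 genes of the bile sterol pump had another zone order in STZ-HFHC than in ND. Abcg5 was at 27.2 periportal and 43.5 pericentral CPM in ND, but at 493 and 318 in STZ-HFHC 1 and at 734 and 342 in STZ-HFHC 2. Abcg8 was at 58.5 and 89.7 CPM in ND, 274 and 220 in STZ-HFHC 1 and 869 and 484 in STZ-HFHC 2. Both genes were thus higher near the central vein in ND and higher near the portal vein in both STZ-HFHC mice. The zone difference itself was compared between conditions by an interaction term, added after these values were seen (edgeR, library as a block): it was lower in STZ-HFHC for Abcg5 (log2 -1.57, adjusted p 0.0109) and Abcg8 (log2 -1.23, adjusted p 0.0257). Of 35 genes tested these 2 were lower and 0 were higher, beside 1.06% lower and 0.894% higher of 14089 genes, and at an unadjusted p under 0.05 there were 4 lower and 6 higher. This term was fitted because of the values above, with a single ND mouse and 1 residual degree of freedom, so its p values describe the same observation and are no independent support for it. At the unadjusted threshold the share over all genes was not counted.

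Macrophages clear lipoproteins and dead cells and export the cholesterol they take up or store it as esters. Macrophage-like nuclei numbered 254, 1354 and 905. The ND nuclei lay mainly in a cluster led by Clec4f, Cd163 and Timd4, genes of resident Kupffer cells, and the STZ-HFHC nuclei in one led by Gpnmb and Mmp12. Differences between the conditions in this class are therefore also differences between these clusters. Of 23 genes that reached the minimum 7 were higher and 6 lower, beside 14.3% higher and 5.47% lower of 10294 genes.

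Abcg1 had the largest ratios, at 12.7, 320 and 178 CPM, 25.2 (14.7 to 47.4) and 14.0 (8.10 to 26.4) times ND. Abca1 was at 346, 1324 and 946 CPM, 3.83 (3.43 to 4.27) and 2.73 (2.45 to 3.06) times ND. Soat1 was at 39.1, 212 and 127 CPM, 5.43 (3.95 to 7.66) and 3.25 (2.34 to 4.62) times ND. All 3 were higher in STZ-HFHC 1 than in STZ-HFHC 2. Mylip, level in hepatocyte-like nuclei, was at 27.4, 129 and 91.3 CPM here, and Npc2, which hands lysosomal cholesterol to Npc1, at 22.5, 92.1 and 51.6 CPM. Nr1h3 was at 66.5, 125 and 105 CPM, above ND in both mice but short of 2-fold. The 6 lower genes, Msmo1, Hsd17b7, Ebp, Stard4, Soat2 and Lcat, had 18 to 37 UMIs in ND. Msmo1 was at 17.6, 6.01 and 5.88 CPM, close to its hepatocyte levels in the same libraries. The summed level of the 10 hepatocyte markers in macrophage-like nuclei was 91.4%, 55.8% and 76.4% of that in hepatocyte-like nuclei, also lower in both STZ-HFHC mice than in ND, and its part in these 6 calls was not tested. The summed level of the 17 macrophage markers in this class was 1025, 3029 and 1727 CPM, higher in both STZ-HFHC mice and highest in STZ-HFHC 1. Its part in the higher calls was not tested either.

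Shares of nuclei with a UMI were compared at equal depth. Each nucleus was thinned to 1000 UMIs, which left out 60, 151 and 81 macrophage-like and 215, 15 and 20 hepatocyte-like nuclei of the 3 libraries. Abcg1 was then seen in 3.61%, 26.9% and 19.9% of macrophage-like nuclei, beside 0.308%, 0.742% and 0.893% of hepatocyte-like nuclei. Soat1 was seen in 4.12%, 18.7% and 16.6%, beside 0.251%, 0.978% and 0.638%. Both genes were thus far more frequent in macrophage-like than in hepatocyte-like nuclei of each library. Abca1 was seen in 33.0%, 67.7% and 62.1%, beside 23.0%, 43.9% and 39.8%. Npc2 was seen in 4.12%, 8.73% and 5.70%, beside 0.675%, 1.15% and 0.829%, and Nr1h3 in 5.67%, 12.3% and 12.7%, beside 4.84%, 4.48% and 4.97%. Unthinned, Abcg1 was in 5.67%, 47.3% and 40.7% of macrophage-like and 1.10%, 6.54% and 4.83% of hepatocyte-like nuclei, whose median depths were 2219.5, 1793 and 1915 and 4045, 7925 and 6556 UMIs.

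Over all 3 mice, with the library as a block, 6 of 34 genes were higher in macrophage-like than in hepatocyte-like nuclei and 3 were lower, beside 14.6% higher and 9.14% lower of 16022 genes (edgeR quasi-likelihood test). The higher genes were Abcg1 (log2 4.42, adjusted p 0.000126), Soat1 (log2 4.34, adjusted p 5.87e-06), Npc2 (log2 2.57, adjusted p 0.000126), Mylip (log2 2.34, adjusted p 0.00146), Nr1h3 (log2 0.91, adjusted p 0.00793) and Abca1 (log2 0.60, adjusted p 0.0419) in edgeR. Abca1 lost its call without STZ-HFHC 1 (adjusted p 0.247) or STZ-HFHC 2 (adjusted p 0.476), without high doublet scores (adjusted p 0.0855) and without the block (adjusted p 0.51), all by edgeR. Nr1h3 lost it without the block (adjusted p 0.0743). The lower genes were Abcg5 (log2 -0.71), Abcg8 (log2 -0.92) and Soat2 (log2 -0.86). Abcg5 lost its call without either STZ-HFHC mouse, without high doublet scores (adjusted p 0.0663) and with library size alone (adjusted p 0.0521), and Soat2 without STZ-HFHC 2 (adjusted p 0.118) and without high doublet scores (adjusted p 0.0628). Without the block all 3 lower calls were lost. The median log2 difference over all genes was -0.10 with TMM scaling and 0.05 with library size alone in this comparison, and -0.12 and 0.04 in the endothelial one, so small differences shift with the scaling.

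**Figure D4:**
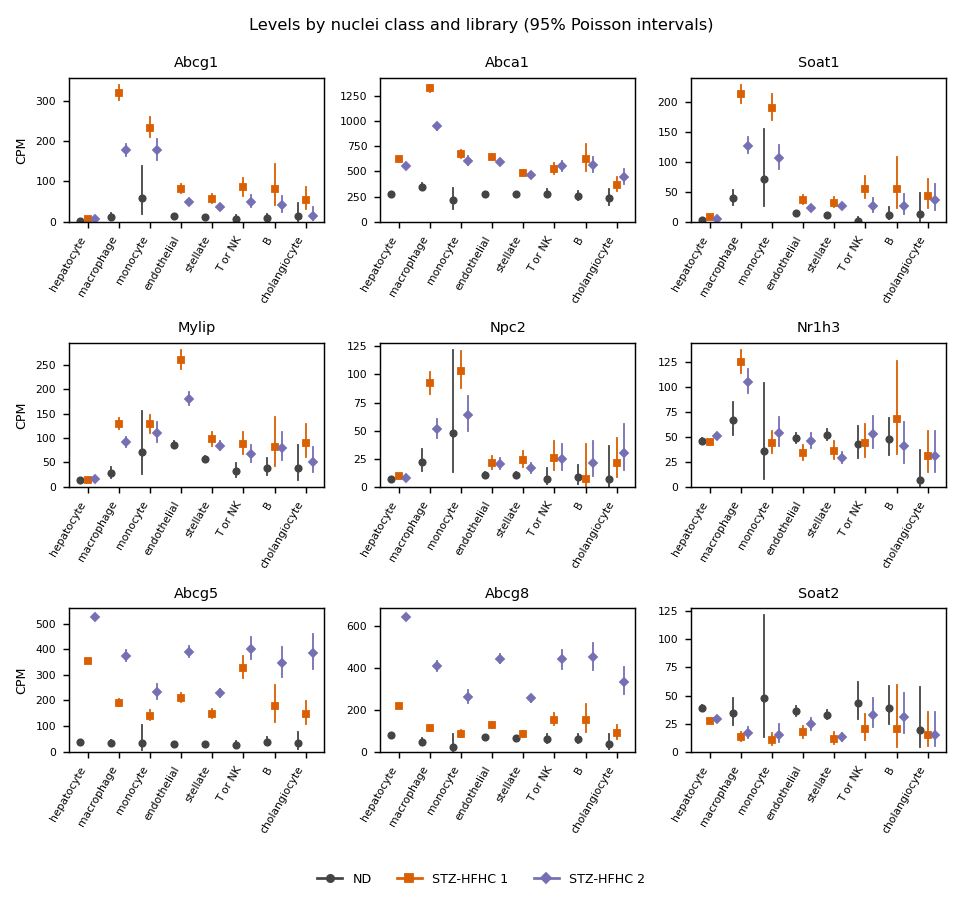
CPM of 9 genes of efflux, esterification, LXR, IDOL and lysosomal transport in 8 nuclei classes of the ND mouse and the 2 STZ-HFHC mice, each axis from 0, bars 95% Poisson counting intervals. Abcg1 and Soat1 are highest in macrophage-like and monocyte-like nuclei of the STZ-HFHC mice, Mylip in endothelial-like nuclei, and Abcg5 and Abcg8 in hepatocyte-like nuclei of STZ-HFHC 2.

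Endothelial cells of the sinusoid take up modified lipoproteins. In endothelial-like nuclei (1192, 883 and 1037, with ND again mostly in a cluster of its own), 5 of 30 genes were higher than in ND and 8 were lower, beside 8.14% higher and 5.36% lower of 11616 genes. Mylip was at 86.6, 261 and 181 CPM, 3.01 (2.70 to 3.37) and 2.09 (1.87 to 2.34) times ND. Abcg1 was at 13.4, 82.2 and 48.6 CPM and Abca1 at 277, 639 and 595 CPM. Abcg5 and Npc2 were the other higher genes, with Npc2 at 10.2, 21 and 20.5 CPM. The lower genes were Pmvk, Cyp51, Msmo1, Hsd17b7, Ebp, Sc5d, Insig1 and Lcat. The hepatocyte marker sum was lower as well, at 84.4%, 63.7% and 76.9% of its hepatocyte-like level, and its part in these calls was not tested. The summed endothelial markers stood at 2179, 5257 and 3406 CPM in this class, higher in both STZ-HFHC mice, and their part in the higher calls was not tested. Insig1, not called in hepatocyte-like nuclei, was at 15.4, 4.13 and 5.55 CPM on 110, 11 and 20 UMIs. Against hepatocyte-like nuclei of the same mice, 5 of 35 genes were higher and 4 lower, beside 14.9% and 8.32% of 15988 genes: Mylip (log2 3.38, adjusted p 3.61e-06), Abcg1 (log2 2.79, adjusted p 2.15e-06), Soat1 (log2 2.05, adjusted p 9.57e-06), Npc2 (log2 0.90, adjusted p 0.00666) and Stard4 (log2 0.60, adjusted p 0.0445) were higher by edgeR. Stard4 lost its call without either STZ-HFHC mouse, without a filter on low counts (adjusted p 0.0597) and with DESeq2 (adjusted p 0.119), and Npc2 without STZ-HFHC 2. Without the block Abcg1, Npc2 and Stard4 lost theirs. The 4 lower genes, Abcg5, Abcg8, Insig2 and Npc1 (log2 -0.52 to -0.68), all lost theirs without either STZ-HFHC mouse.

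In stellate or fibroblast-like nuclei 29 genes reached the minimum, and Abcg5, Abcg1 and Soat1 were higher and Ebp, Sc5d, Stard4, Soat2 and Lcat lower, beside 11.2% higher and 8.6% lower of 11689 genes. Of the 1158 ND nuclei 1022 lay in a cluster that held 3 and 1 nuclei of the STZ-HFHC mice, so the conditions again lay in different clusters. The hepatocyte marker sum was 80.0%, 49.8% and 56.9% of its hepatocyte-like level, and its part in the lower calls was not tested. The summed stellate or fibroblast markers stood at 1765, 6705 and 5682 CPM in this class, and their part in the higher calls was not tested. Stard4 was at 15.7, 1.63 and 2.39 CPM on 107, 3 and 9 UMIs, a deeper difference from ND than in hepatocyte-like nuclei, though the 2 differences were not compared by a test. Against hepatocyte-like nuclei 4 of 35 genes were higher (Abcg1, Mylip, Soat1 and Npc2, log2 0.96 to 2.55) and 8 lower (Sc5d, Scap, Insig2, Npc1, Abcg5, Abcg8, Soat2 and Lcat), beside 18% and 12.2% of 16117 genes.

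Monocyte-like nuclei had 40, 677 and 491 nuclei, and the ND values rest on few UMIs. Markers of dendritic cells summed to 1437, 860 and 853 CPM in this class and those of monocytes to 392, 1255 and 786 CPM. Between these, dendritic markers were higher in ND and STZ-HFHC 2 and monocyte markers in STZ-HFHC 1. The 17 macrophage markers summed to 428, 1372 and 949 CPM, above both in the STZ-HFHC mice. The 10 endothelial markers summed to 1140, 870 and 993 CPM. The part of these marker sums in the contrast with ND was not tested. Abcg5, Abcg8, Abca1 and Abcg1 were higher and Scap lower among 14 genes with the minimum, beside 11.3% higher and 7.47% lower of 7123 genes. Abcg1 was at 59.4, 233 and 177 CPM, from 5 UMIs in ND. Against hepatocyte-like nuclei 5 of 35 genes were higher (Abcg1, Soat1, Npc2, Mylip and Srebf2) and 8 lower, beside 20.8% and 20.3% of 15544 genes. Abcg1 (log2 4.6) and Soat1 (log2 4.38) differed by about as much here as in macrophage-like nuclei.

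Lymphocyte-like classes were small, with 130, 334 and 337 T or NK cell-like and 144, 78 and 161 B cell-like nuclei, and UMI counts were low. In T or NK cell-like nuclei Mylip, Abcg5, Abcg8, Abcg1 and Soat1 were higher and Sc5d lower among 14 genes, beside 10.1% higher and 4.44% lower of 6486 genes. Abcg1 was at 7.28, 85.2 and 49.3 CPM on 5, 60 and 42 UMIs. The summed T or NK cell markers stood at 782, 2408 and 1640 CPM in this class, and their part in the higher calls was not tested. In B cell-like nuclei Mylip, Abcg5, Abcg8 and Abca1 were higher and 0 genes lower among 10, beside 5.18% higher and 4.33% lower of 4340 genes. The summed B cell markers stood at 763, 2030 and 1195 CPM there, and their part in the higher calls was not tested. Against hepatocyte-like nuclei, T or NK cell-like nuclei had 4 higher genes (Abcg1, Soat1, Mylip and Npc2) and 5 lower of 35, beside 10.5% and 8.76% of 15679 genes. B cell-like nuclei had 3 higher (Abcg1, Soat1 and Mylip) and 4 lower of 35, beside 5.48% and 2.12% of 15021 genes.

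Cholangiocyte-like nuclei, which line the bile ducts, were few (34, 101 and 128). Abcg5 and Abcg8 were higher than in ND and 0 genes lower among 6 with the minimum, beside 8.91% higher and 4.7% lower of 3534 genes. Against hepatocyte-like nuclei, 2 of the 18 synthesis genes, Sqle (log2 3.68, adjusted p 0.00255) and Fdft1 (log2 1.80, adjusted p 0.0248), were higher by edgeR and 1, Sc5d (log2 -0.72, adjusted p 0.0439), was lower. Sqle rested on 2, 1 and 3 UMIs there. Stard4 of the SREBP system was higher too (log2 1.44, adjusted p 0.0223 by edgeR). With Mylip, Abcg1 and Soat1 this made 6 higher genes of 35, with 8 lower, beside 11.2% and 10.2% of 15113 genes.

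Across classes, 3 genes were higher than in hepatocyte-like nuclei in each of the 7 comparisons: Abcg1 (log2 1.98 to 4.6), Soat1 (log2 2.03 to 4.38) and Mylip (log2 1.92 to 3.38), with adjusted p values of at most 0.00146 by edgeR. Abcg5 (log2 -0.51 to -1.38) and Abcg8 (log2 -0.67 to -1.50) were lower in each, with adjusted p values of at most 0.029. The 7 comparisons share the same hepatocyte-like sums and are not independent of each other. Yet Abcg5 was called higher than in ND in all 8 classes. Its level was 27.7 to 38.9 CPM over the classes in ND (on 3 to 945 UMIs), 141 to 355 CPM in the first STZ-HFHC mouse and 230 to 525 CPM in the second, with hepatocyte-like nuclei the highest in both STZ-HFHC mice. The hepatocyte markers were likewise present in each class, at 49.0% to 91.4% of their hepatocyte-like level, and their part in the values of Abcg5 outside hepatocyte-like nuclei was not tested. No gene of the 36 was called higher in one class and lower in another. For none of these statements across classes was the share over all genes counted, so they are not set against a background.

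Some of these genes share their place in the genome with others. In the mm10 annotation 18 of the 36 overlap another gene, 5 of them on the same strand (Fdps, Tm7sf2, Srebf2, Nr1h3 and Abcg1), so part of their UMIs could belong to the neighbour or be lost to it. For Fdps and Tm7sf2 the neighbour codes for protein. Abcg1 (chr17:31057675-31117988, plus strand) overlaps a small gene model on its strand, while Soat1 (chr1:156424525-156474331, minus strand) and Abca1 (chr4:53030787-53159895, minus strand) overlap none there. Lcat lies at chr8:105939551-105943382 on the minus strand.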

How the data were processed

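Per the labels, the deposited files hold counts: UMI counts per gene and barcode, made by the authors with Cell Ranger 7.0.1 on mm10, not normalized, 1 matrix per mouse. Whether intronic reads were counted is not given in the sources used here. Nuclei with 200 to 5000 genes and at most 5% mitochondrial UMIs were kept and clustered (Scanpy 1.11.5, 2000 variable genes, 30 components, leidenalg 0.10.2, resolution 1) without 60 sterol genes. Clusters were named from marker lists, most hepatocyte-like ones by the looser second rule, and 1 ND cluster by a step added after the clusters had been seen. Clusters that met no naming rule stayed unnamed (139, 1909 and 1868 nuclei). Scrublet's threshold marked almost no nuclei and so did not work. Doublets stayed in, with the highest 8% of scores left out as an alternative. UMI counts were summed per class and library. Class and zone tests used edgeR 4.0.16 with TMM, filterByExpr and library as a block, after tests on simulated data, with DESeq2 1.42.0 as an alternative. Ratios to ND had 0.5 added to counts on the log2 scale. Intervals were exact Poisson and conditional binomial.

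The 36 members and all lists were chosen with earlier results of these data known. All members are described. Other genes are named only as sterol genes that met the size rule, markers or cluster leaders, and the rest of the sterol list is not reported here by name. The 3 promoters shown are those of the largest changes. The 3 libraries come from separate mice.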

Additional observations from a re-analysis of the deposited data

Results flagged for a closer look

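The genes of the bile sterol pump stood out because their zone difference pointed one way in the ND mouse and the other way in both STZ-HFHC mice, each beyond its 95% counting interval. In hepatocyte-like nuclei the level of Abcg5 in pericentral nuclei was 1.60 times its periportal level in ND (1.32 to 1.94), 0.645 times in STZ-HFHC 1 (0.610 to 0.681) and 0.467 times in STZ-HFHC 2 (0.447 to 0.487). For Abcg8 the ratios were 1.53 (1.34 to 1.75), 0.804 (0.75 to 0.861) and 0.557 (0.537 to 0.578). This pattern was found for 2 of 33 members and for 0.784% of 13397 genes, while the opposite pattern was found for 0 members and 0.896% of genes. Members and genes counted here had at least 50 UMIs summed over both zones and the 3 libraries. The interaction term of the report was chosen after these values were seen, rests on 1 ND mouse and is no independent support.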

How the results depend on the processing

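In hepatocyte-like nuclei, the 9 lower genes became 14 at 1.5-fold, 5 in pericentral nuclei alone and 0 with the edgeR test, and 10 to 11 when 1 mouse was left out. The 4 higher genes became 1 with edgeR and 2 with DESeq2, and 4 to 5 when 1 mouse was left out. Only an STZ-HFHC mouse could be left out here. The rule then asked for 2-fold in the other mouse alone, so these counts could fall only through the UMI minimum. Against 9 and 4, the ND cluster named only after the clusters had been seen could be left out with 9 lower and 4 higher. The median log2 ratio of the synthesis genes (mean of both mice, -0.97) was -1.08 with TMM factors and -1.08 with DESeq2 size factors, -0.95 without high doublet scores, -0.80 over all kept nuclei, -0.80 over every barcode, -0.96 and -0.98 at clustering resolutions 0.5 and 2, -1.0 without that ND cluster, -0.88 and -1.01 in pericentral and periportal nuclei, -0.98 with equal weight per nucleus, and -0.97 to -0.96 with 1 mouse left out. The medians with 1 mouse left out are those of the single STZ-HFHC mice given above and are no separate check. The zones, the equal weight and the left-out ND cluster were chosen after seeing the data.

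Without the replicate block, which paired the class sums of a mouse, lower genes fell from 3 to 0 in macrophage-like, 4 to 0 in endothelial-like and 5 to 0 in pericentral nuclei. Over all genes they fell from 1465 of 16022 to 25 of 15076, 1330 of 15988 to 8 of 15228 and 727 of 13395 to 29 of 12833. Higher genes fell from 5 to 2 in endothelial-like and 1 to 0 in pericentral nuclei. Over all genes these fell from 2384 to 821 and 807 to 59. At an unadjusted p under 0.05 there were 0, 1 and 3 lower and 1 higher pericentral, and the share over all genes was not counted. Without high doublet scores 1 gene was lower in macrophage-like nuclei, beside 465 of 15828 genes. Without a filter on low counts 8 were lower in endothelial-like nuclei, beside 2305 of 25017 genes. DESeq2 had 3 lower in pericentral nuclei, beside 445 of 14311 genes. With 1 mouse left out there were 1 to 7 lower in macrophage-like, 3 to 5 higher and 0 to 8 lower in endothelial-like, and 0 to 3 higher and 0 to 6 lower in pericentral nuclei. Among all 12968 to 15447 genes tested there were 216 to 3008 lower in macrophage-like nuclei. Endothelial-like nuclei then had 1528 to 3342 higher and 81 to 2281 lower, and pericentral nuclei 327 to 1193 higher and 263 to 990 lower. For calls against ND, lower genes in monocyte-like nuclei went from 1 to 2 without high doublet scores and to 2 at a minimum of 20 UMIs, those in T or NK cell-like nuclei from 1 to 3 and those in cholangiocyte-like nuclei from 0 to 2 at that minimum, and higher genes in cholangiocyte-like nuclei from 2 to 1 without high doublet scores and 4 at that minimum. The cause of these shifts was not tested. For the calls against ND under these alternatives the share over all genes was not counted. No result reversed. Of single genes, 516 hepatocyte-like ratios kept their call, 22 gained and 12 lost it, and of class and zone differences 735 kept it, 19 gained and 52 lost it. The other 5 class comparisons were fitted in 1 way only. One ND mouse leaves the spread between ND mice unmeasured, and genes under 50 UMIs in a class got no call against ND. The class and zone tests used filterByExpr in place of this minimum.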
